A study of Mus musculus with 4 samples.

Results

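Cluster 16 is 1 of 23 numbered clusters that the authors made from single-nucleus RNA of mouse kidney cortex, and it was taken as the 4 columns of the deposited table whose names start with its number. It holds 489 of 26144 nuclei, as inferred from the table. Nuclear RNA of kidney cortex was counted with the 10X Chromium droplet system, which gives each RNA molecule a unique molecular identifier (UMI). There are 4 libraries, 1 per genotype, all on C57BL/6J. The control is labelled Klf4flox/flox, a mouse in which Klf4 is flanked by recombination sites but present. Klf4deltaEC (called Klf4 dEC below) is labelled as lacking Klf4 in endothelial cells, Nos3-/- (Nos3 null) as lacking Nos3, and Klf4deltaECNos3-/- (Klf4 dEC Nos3 null) as lacking both. The promoter that drove the deletion, the age of the mice, the number of mice per library and whether the Nos3 null mice carry floxed Klf4 are not stated in the labels. Per the title, the study asks what lowering endothelial Klf4 does to the cortex with and without Nos3. No genotype has a replicate, so what follows compares individual libraries, with no test and no p-value.

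Intercalated cells are the acid-base cells of the connecting tubule and collecting duct, scattered among the principal cells that handle water and sodium. Type A cells pump protons into the urine with a vacuolar H+-ATPase on the apical membrane and return bicarbonate to the blood through the anion exchanger AE1, made from Slc4a1. Type B cells secrete bicarbonate through the apical chloride and bicarbonate exchanger pendrin, made from Slc26a4. Both types depend on the forkhead transcription factor Foxi1. Klf4 encodes a Krüppel-like transcription factor, and Nos3 encodes the nitric oxide synthase of endothelium.

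All levels below are mean UMIs per 10000 UMIs over the nuclei of a cluster in a library. Ranges in brackets are 95% counting intervals, which cover counting error only and assume that nuclei of a cluster are alike. Unless libraries are named, values run from the control through Klf4 dEC and Nos3 null to the library with both labels. A log2 ratio compares (level + 0.1) in both columns, and a gene is called higher from 1 upwards and lower from -1 downwards.

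Cluster 16 numbered 126 nuclei in the control and 144 in Klf4 dEC, then 90 in Nos3 null, with 129 where both labels apply. These are 1.86% (1.55 to 2.21) of the control's 6766 nuclei, 2.09% (1.77 to 2.46) of 6883, 1.28% (1.03 to 1.58) of 7004 and 2.35% (1.97 to 2.79) of 5491. The Nos3 null share was the lowest, and its interval overlapped the control's but not those of the other 2 libraries. Cluster 14, the other intercalated cluster, held 1.91%, 2.41%, 2.07% (1.75 to 2.43) and 2.49%. Of the nuclei in clusters 14 and 16 together, cluster 16 made up 49.4% (43.1 to 55.7), 46.5% (40.8 to 52.2), 38.3% (32.1 to 44.8) and 48.5% (42.3 to 54.7). The median nucleus of cluster 16 held 3515, 2917, 1833 and 3775.5 UMIs, again lowest in Nos3 null. The Nos3 null column is the shallowest, and a count of 3 UMIs there equals a level of 0.198, against 0.0761, 0.0746 and 0.0636 in the others. Whether depth bears on the share or on the levels was not tested.

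**Figure D1:**
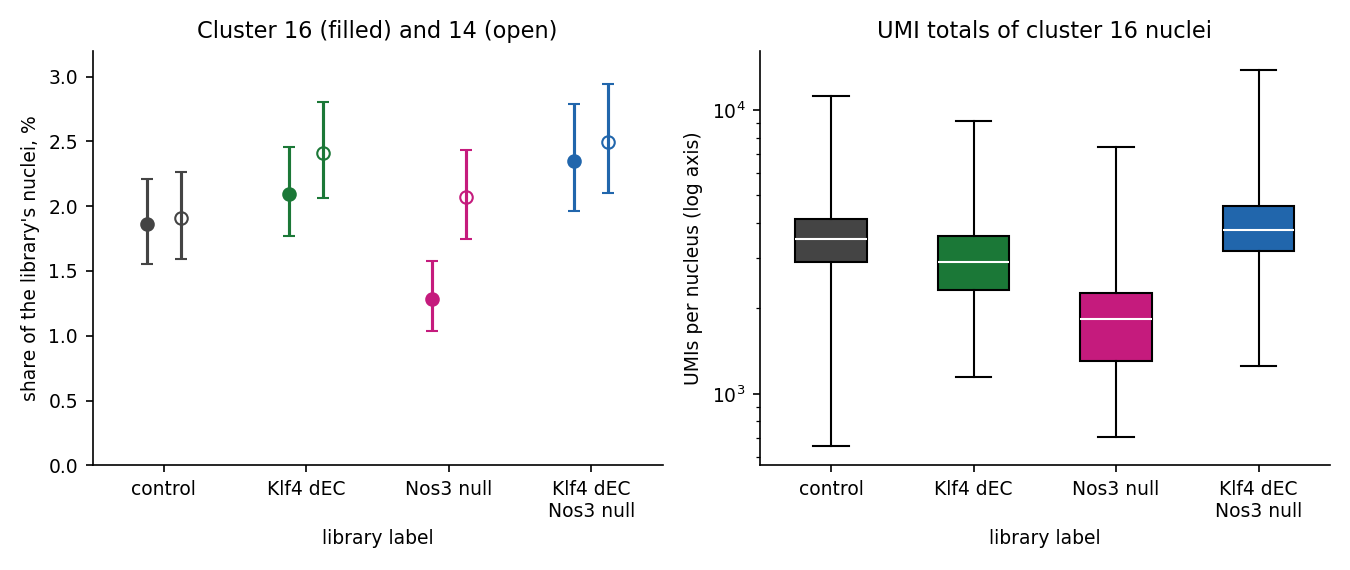
Left, the share of each library's nuclei in cluster 16 (filled) and cluster 14 (open), in percent with 95% exact binomial intervals. Right, UMIs per nucleus of cluster 16 on a log axis, with boxes from the first to the last quartile, a white median line and whiskers to the lowest and highest totals. The Nos3 null library has the lowest cluster 16 share, 1.28%, and the lowest median total, 1833 UMIs.

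Neither targeted gene could be followed in these nuclei. Klf4 stood in cluster 16 at 0.0106, 0.0842, 0 and 0, from UMIs in 1, 4, 0 and 0 nuclei, and Nos3 at 0, 0.0318, 0 and 0.0159, from 0, 1, 0 and 1. In cluster 10, which holds the endothelial markers, Klf4 stood at 0.621, 0.779, 0.445 and 0.824 and Nos3 at 1.26, 0.930, 1.52 and 2.07. The libraries labelled as lacking a gene thus did not have less of it than the control. The reads are not placed within the genes here, so a level outside a deleted part would check nothing. These levels can therefore neither bear out nor contradict the labels. A comparison named by a genotype is therefore one between libraries so labelled.

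In every library, all type A markers were higher in cluster 16 than in cluster 14, and most type B markers were higher in cluster 14. All 7 type A markers were at least 2-fold higher in cluster 16 than in cluster 14 in all 4 libraries on the scale of (level + 0.1), where 65 of 3486 genes (1.86%) were. Of the 6 type B markers, 5 passed the filter of 0.5 per 10000 and 4 of those were lower in cluster 16 in all 4 libraries, where 64 genes (1.84%) were. The median log2 ratio of cluster 16 over cluster 14 was 3.41 over the type A markers, -3.94 over the 5 type B markers and 0.02 over all genes. These genes took part in the clustering, so the counts describe the clusters and test nothing.

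Slc4a1 (chromosome 11 from 102348824 to 102366203, minus strand, mm10), the defining gene of type A cells, reached in cluster 16 1.78 (1.38 to 2.24), 1.96 (1.55 to 2.45), 2.78 (2.00 to 3.75) and 3.09 (2.61 to 3.64). In cluster 14 it stood at 0.0494, 0.146, 0.0186 and 0.130, and no cluster of the control other than 16 passed 0.239. All 4 libraries are far apart between the clusters for this gene. Aqp6, an anion and water channel of intracellular vesicles in type A cells, was at 4.94 (4.28 to 5.69), 3.31 (2.77 to 3.92), 1.42 (0.859 to 2.12) and 4.94 (4.32 to 5.62) against 0.220, 0.386, 0.179 and 0.344. Slc26a7, a second basolateral anion exchanger of type A cells, was at 4.70 (4.04 to 5.42), 1.41 (1.07 to 1.84), 1.77 (1.18 to 2.60) and 6.20 (5.52 to 6.96) against 0.0564, 0.164, 0.0222 and 0.190. For both genes the clusters did not overlap, while the libraries differed among themselves within cluster 16.

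Kit (chromosome 5 from 75574916 to 75656722, plus strand), a receptor tyrosine kinase, was at 17.8 (16.5 to 19.2), 11.6 (10.5 to 12.7), 9.49 (8.03 to 11.2) and 9.58 (8.72 to 10.5) in cluster 16 and at 1.04 to 2.45 in cluster 14. Adgrf5 (chromosome 17 from 43360451 to 43459557, plus strand), an adhesion G protein-coupled receptor, was at 26.1 (24.5 to 27.7), 26.6 (25.1 to 28.3), 20.7 (18.5 to 23.1) and 26.9 (25.4 to 28.4) against 0.752 to 2.50. Its second highest level in the control was 6.98, in cluster 10. Dmrt2, a DM-domain transcription factor, was at 1.49, 2.99, 1.41 and 3.14 and P2ry14, the receptor for UDP-sugars, at 1.63, 1.55, 0.592 and 1.88, with every value above its cluster 14 counterpart. The summed level of the 7 type A markers was 58.5, 49.4, 38.2 and 55.7 in cluster 16 and 3.43, 5.75, 2.05 and 4.87 in cluster 14.

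Slc26a4 (chromosome 12 from 31519827 to 31559969, minus strand), the pendrin gene and one of the markers by which cluster 16 was proposed, went against that choice. It was found at 0.164 (0.0559 to 0.331), 0.155 (0.0547 to 0.325), 1.77 (1.18 to 2.60) and 0.240 (0.116 to 0.417) in cluster 16 and at 99.7, 89.2, 79.0 and 96.8 in cluster 14. The median of the other 21 clusters, with cluster 14 left out, was 0.172, 0.121, 0.653 and 0.145. The cluster 16 level was below that median in the control and above it in the other 3 libraries. In the control, UMIs of Slc26a4 lay in 7 of the 126 nuclei, and in Klf4 dEC in 5 of the 144, with at most 2 in any nucleus. The given markers Foxi1 and Atp6v1g3 were present in both clusters. Foxi1 was at 0.611 (0.390 to 0.906), 0.721 (0.483 to 1.04), 0.347 (0.107 to 0.771) and 1.24 (0.933 to 1.59) in cluster 16 and at 0.617, 0.232, 0.349 and 0.887 in cluster 14, and at 0.0799 or less elsewhere in the control. Cluster 16 is therefore called type A intercalated-like and cluster 14 type B intercalated-like.

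The type B genes did not all separate the clusters. Slc4a9, a basolateral exchanger known from type B cells, was at 8.96 (8.05 to 9.94), 9.05 (8.14 to 10.0), 11.3 (9.67 to 13.1) and 10.9 (9.99 to 11.9) in cluster 16 and at 37.4, 24.7, 28.5 and 34.3 in cluster 14. It was lower in cluster 16 in every library, but the median of the other 21 clusters, without cluster 14, was only 0.0570 to 0.197. Insrr, a receptor that senses alkaline fluid, was at 0.788, 0.785, 0.344 and 0.412 against 12.5, 8.86, 12.7 and 10.8. Hmx2, a homeobox factor, was at 0.0162 to 0.0654 against 1.45 to 2.87. Oxgr1, the receptor for alpha-ketoglutarate, was at 2.82, 3.60, 4.08 and 3.37 against 3.91, 2.62, 1.88 and 2.70, higher in cluster 14 in the control alone. Slc4a8, a sodium-driven bicarbonate exchanger, did not pass the filter, at 0.453, 0.215, 0.0564 and 0.177.

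**Figure D2:**
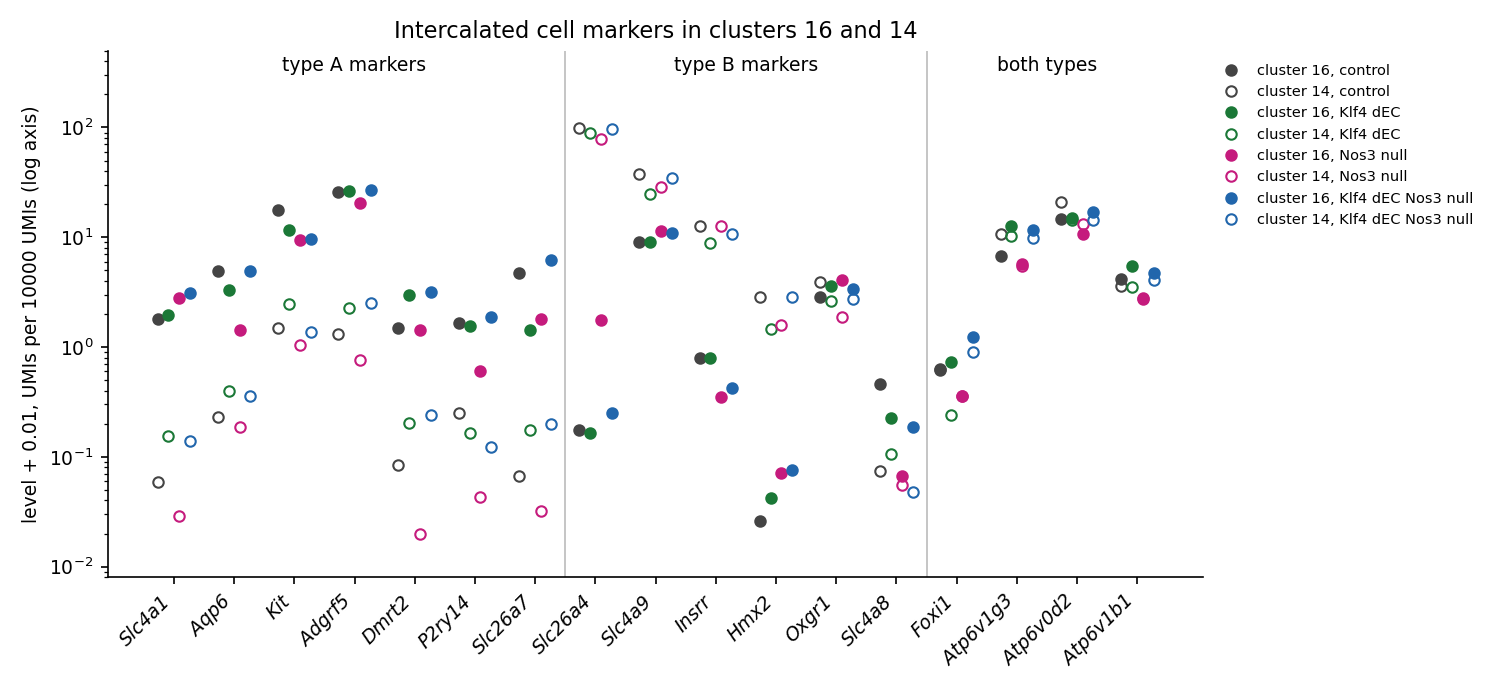
Levels of 7 type A markers, 6 type B markers and 4 genes of both types in cluster 16 (filled) and cluster 14 (open), each library in its own colour, as level + 0.01 in UMIs per 10000 UMIs on a log axis. All 7 type A markers are higher in cluster 16 in the 4 libraries, while Slc26a4 lies at 79.0 to 99.7 in cluster 14 and at 0.155 to 1.77 in cluster 16.

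What the clusters shared was the proton pump and the transport around it. Against the other clusters, the filter read the cluster 16 level alone, so genes low there could not enter. Of 14 genes listed for both intercalated types, 12 passed the filter and 11 were at least 2-fold above the mean of the other 22 clusters in all libraries, where 191 of 2810 genes (6.8%) were, and 0 separated clusters 16 and 14. Atp6v1b1, the pump subunit whose loss in humans causes renal tubular acidosis, was at 4.19, 5.44, 2.79 and 4.67 in cluster 16 and 3.58, 3.48, 2.75 and 4.04 in cluster 14. Atp6v0d2, a membrane-sector subunit, was at 14.7, 15, 10.7 and 17.1 and at 20.9, 14.5, 13.2 and 14.4. Of the pump's cytosolic V1 subunits 6 of the 8 that passed, and of its membrane V0 subunits and accessory proteins 2 of 7, were above the other clusters in this way, with medians of 1.59 and 1.14 against 0.13 over all genes. Rhcg, an ammonia channel, was at 8.22, 5.70, 3.39 and 6.31 and Rhbg, its basolateral relative, at 1.91, 0.985, 1.80 and 1.46. The carbonic anhydrase gene Car2 was at 4.22, 3.74, 2.83 and 3.04, against a median of 0.570 to 0.806 in the other clusters, and Car12 at 13.6, 9.47, 13.3 and 12.6 against 1.07 to 1.90.

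Of 19 listed acid-base sensors and hormone receptors, 7 passed the same filter on the cluster 16 level. Of these, 4 were at least 2-fold above the mean of the other 22 clusters in all libraries, where 191 of 2810 genes (6.8%) were. They were Adgrf5 and P2ry14, also on the type A list, Oxgr1, also on the type B list, and the mineralocorticoid receptor gene Nr3c2. Nr3c2 was at 21.4, 17.7, 16.8 and 17.5 in cluster 16, 15.6, 13.1, 11.9 and 13.4 in cluster 14, and 3.57 to 4.99 in the median of the others. Tfcp2l1, a transcription factor of intercalated and other collecting duct cells, was at 30.3, 31.1, 30.7 and 27.5 and the median of the others at 4.21 to 5.33. Jag1, a Notch ligand, was lower in cluster 16 than in 14 in all libraries, at 0.558, 0.229, 0.365 and 0.485 against 1.80, 2.10, 1.97 and 2.05. Defb1, which encodes an antimicrobial beta-defensin, was higher in cluster 16 than in 14, at 5.76, 11.9, 7.67 and 8.15 against 0.694, 1.70, 1.32 and 1.88. Pde1a, a calcium-dependent phosphodiesterase, was at 36, 18.9, 13 and 25, above the other clusters' median of 2.75 to 3.35 and close to cluster 14 at 18.7 to 31. The nitric oxide receptor gene Gucy1a1 was at 0.0238 or less in every library.

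The genes that led cluster 16 over the mean of the other 22 clusters included 6 of the 7 type A markers and 2 pump subunit genes. Ranked by the lowest log2 ratio over the libraries, the first were Adgrf5 at 5.33, Kit at 5.28 and Clnk at 4.72, followed by Rcan2, Dmrt2, Calcr, Slc4a1, Pdlim3 and Aqp6 between 3.69 and 3.97. Clnk, an adaptor protein known from immune cells, was at 9.48, 11.8, 12.1 and 14.6, and at 3.62, 2.79, 2.43 and 2.65 in cluster 14. Calcr, the calcitonin receptor gene, was at 1.66 (1.27 to 2.10), 2.81 (2.32 to 3.38), 1.82 (1.18 to 2.60) and 4.67 (4.07 to 5.32), and at 0.309 or less in cluster 14. Pdlim3, an actin-binding protein gene, was at 4.83, 1.74, 2.14 and 2.79 against 0.172, 0.460, 0.116 and 0.562. Others of the first 20 were shared with cluster 14: Rcan2, a calcineurin regulator, was at 21.6, 17.6, 21.3 and 26.0 against 16.6, 13.5, 11.7 and 15.4, and Wscd2 at 5.65, 5.21, 6.05 and 4.26 against 4.02, 2.54, 4.50 and 2.60. Against the highest of the other 21 clusters, with cluster 14 left out, 44 genes were at least 2-fold higher in all 4 libraries in place of 191.

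**Figure D3:**
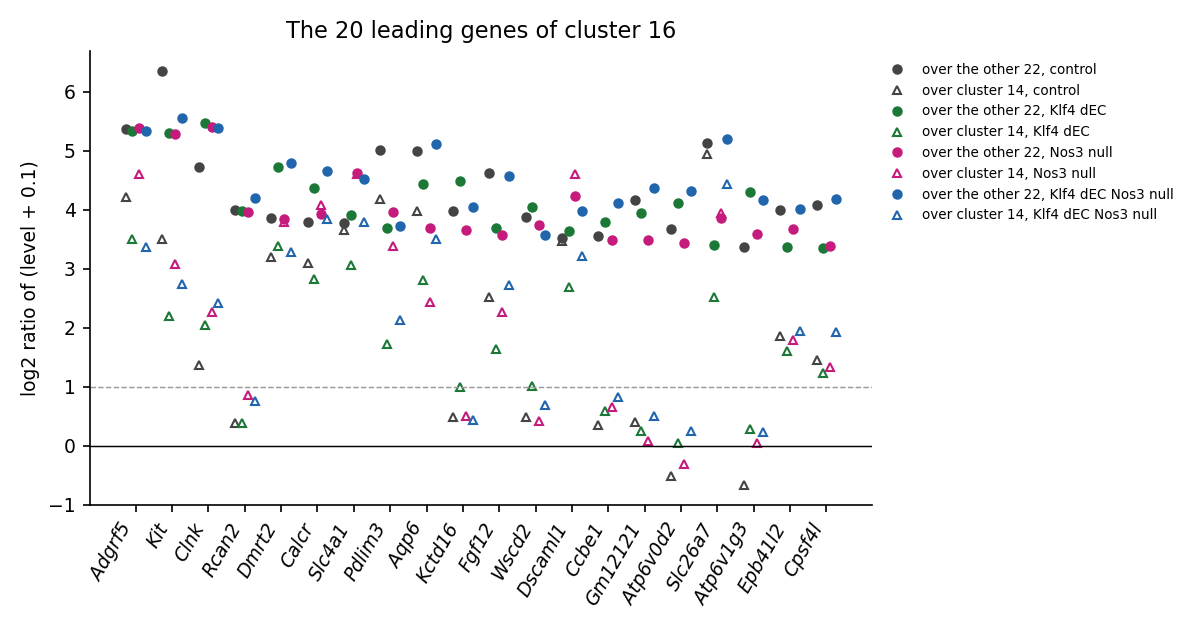
Log2 ratios of (level + 0.1) for the 20 leading genes of cluster 16, over the mean of the other 22 clusters (filled circles) and over cluster 14 (open triangles), each library in its own colour. The lowest circle lies at 3.35, while the triangles of Atp6v0d2 and Atp6v1g3 lie on both sides of 0.

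Promoter windows of the leading genes were read from RefSeq on GRCm38.p6, in windows of 300 bases around a start site. Any windows of these genes on 1 of the chromosomes were left out. Windows were used for 13 of the 20 genes, 23 in all. They were searched on both strands for the forkhead core TGTTTAC, since Foxi1 is a forkhead factor. It was found in 1 of the 23 windows, in Cpsf4l, and in 1199 of all 32851 promoter windows (3.65%). The windows of the first-ranked Adgrf5 (chr17:43360181-43360480, plus strand) and Kit (chr5:75574737-75575036, plus strand) are shown beside that of Cpsf4l (chr11:113709968-113710267, minus strand), with the match in capitals, read here as GTAAACA on the gene's own strand, starting at -142 from the start site.
Adgrf5: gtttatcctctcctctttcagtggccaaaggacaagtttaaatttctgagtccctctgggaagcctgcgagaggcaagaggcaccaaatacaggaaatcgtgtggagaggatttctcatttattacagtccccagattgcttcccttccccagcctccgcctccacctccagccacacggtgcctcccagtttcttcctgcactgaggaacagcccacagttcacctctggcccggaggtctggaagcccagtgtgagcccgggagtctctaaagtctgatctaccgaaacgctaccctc
Kit: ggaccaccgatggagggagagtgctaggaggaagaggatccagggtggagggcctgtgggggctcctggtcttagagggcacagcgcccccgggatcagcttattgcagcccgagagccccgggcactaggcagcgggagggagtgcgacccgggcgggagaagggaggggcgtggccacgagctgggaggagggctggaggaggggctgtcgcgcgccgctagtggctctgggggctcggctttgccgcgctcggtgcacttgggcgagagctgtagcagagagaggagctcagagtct
Cpsf4l: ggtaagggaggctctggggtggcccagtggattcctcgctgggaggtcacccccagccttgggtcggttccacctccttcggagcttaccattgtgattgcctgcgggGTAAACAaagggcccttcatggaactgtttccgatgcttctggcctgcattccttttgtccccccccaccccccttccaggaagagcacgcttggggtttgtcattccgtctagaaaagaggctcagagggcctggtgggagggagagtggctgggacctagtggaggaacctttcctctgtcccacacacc
Cpsf4l was at 3.39, 1.95, 1.78 and 3.28 in cluster 16, 1.17, 0.767, 0.647 and 0.790 in cluster 14 and 0.182 or less elsewhere in the control. A match is a string of letters and not a bound site.

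Beyond the markers, the genes named here are those ranked first in each direction between cluster 16 and cluster 14, and they come from no fixed list. Of the genes higher in cluster 16, Eya2, a transcriptional co-regulator, was at 2.76, 2.22, 1.88 and 2.78 against 0.0775 to 0.188, and Mme, the membrane peptidase neprilysin, at 9.09, 5.71, 5.36 and 6.30 against 0.482, 0.641, 0.75 and 0.835. Negr1, a neuronal adhesion protein gene, was at 8.13 (7.25 to 9.06), 5.74 (5.03 to 6.53), 1.27 (0.756 to 1.96) and 7.47 (6.70 to 8.28) against 0.107 to 0.355. The libraries split here, with the Nos3 null value apart from the other 3. Pgm5, Kctd8, Dscaml1, Nkain3, Slc35f1 and Chst8 were higher by at least 2.40 in every library. Of the genes lower in cluster 16, Lsamp, a limbic adhesion protein gene, was at 0.979, 1.05, 1.80 and 0.843 against 112, 73.9, 71.3 and 96.8. Nbea, a vesicle-trafficking protein gene, was at 1.04, 1.16, 1.39 and 0.849 against 30.3, 27, 22 and 29.1, and Ank, a pyrophosphate and ATP release protein gene, at 0, 0.185, 0.108 and 0.114 against 3.77, 5.36, 4.44 and 4.66. Kcnq3, a potassium channel gene, and Kcnip1, a gene of a potassium channel-interacting protein, were at 0.0878 or less in cluster 16. In cluster 14 they were at 0.989 to 3.04.

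The Nos3 null library decided how many genes separated the clusters. With it left out, 286 genes rather than 129 passed in the remaining 3 libraries, 113 higher and 173 lower in cluster 16. Cluster 14 was nonetheless the closest of the 22 clusters to cluster 16 in every library, with a correlation across genes of 0.90, 0.888, 0.909 and 0.895. The next was cluster 8, 8, 11 and 8, at 0.856, 0.848, 0.862 and 0.844. Genes are not independent points, and the correlations carry no test.

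Markers of other cell types that cortex could hold were present in cluster 16, some above and some below the median of the other clusters. The 11 principal cell markers summed to 6.91, 6.33, 5.76 and 7.71, against 31.6 to 46.3 in cluster 8 and a median of 2.31, 2.54, 1.80 and 2.59 over the other clusters, and Aqp2, which encodes the water channel of principal cells, was at 0.520, 0.399, 0.0685 and 0.632. The 7 connecting tubule markers summed to 20.4, 10.6, 22.2 and 10.9, against a median of 9.06, 9.03, 18.4 and 8.47 over the other clusters and 590 to 804 in cluster 11. The 10 endothelial markers summed to 1.31, 0.752, 0.774 and 0.351, against 64.2 to 129 in cluster 10, with 2, 2, 5 and 4 of them at 0. Kdr, the VEGF receptor gene, was at 0 in the 3 libraries other than the control. The 8 macrophage markers summed to 0.164 to 0.686. The 14 proximal tubule markers summed to 40.3, 51.2, 88.6 and 36.9, against a median of 78.9, 88.9, 110 and 68.6 over the other 21 clusters, without cluster 14. Their part in the values of cluster 16 was not tested. Barcodes are not analysed here, so nuclei shared by libraries were not counted.

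The library labelled Klf4 dEC differed from the control in cluster 16 by fewer genes than the library labelled Nos3 null did. Of 4156 genes, 130 were higher (3.13%) and 92 lower (2.21%), together 5.34%. Across all 4156 genes the log2 ratio in cluster 16 had a correlation of 0.40 with the median ratio of the other 22 clusters. In cluster 14, 120 of 4148 genes were past the same limit. Of the 7 type A markers, Slc26a7 alone was past the limit, at -1.67. Its level of 4.70 (4.04 to 5.42) in the control and 1.41 (1.07 to 1.84) in Klf4 dEC do not overlap in their intervals. The other 6 lay between -0.62 for Kit and 0.96 for Dmrt2.

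Some of the largest differences were in genes barely detected in the other libraries. Fyb2, an adaptor protein gene, was at 0.0484 (0.00614 to 0.183), 2.12 (1.69 to 2.61), 0 and 0.553 (0.360 to 0.807), a log2 ratio of Klf4 dEC over control of 3.91 (3.48 to 8.45, the interval of the ratio without the added 0.1). Chrna9, a nicotinic acetylcholine receptor subunit gene, was at 0.599 (0.382 to 0.888) in Klf4 dEC and at 0 in the other 3 libraries, at least 7.88-fold higher than in the control. Its median over the other clusters was 0 in every library, and outside clusters 16 and 14 its highest level in Klf4 dEC was 0.0740, in cluster 18. Ranbp3l was at 1.98 (1.56 to 2.47), 10.8 (9.75 to 11.8), 1.08 (0.604 to 1.72) and 1.48 (1.16 to 1.87), a log2 ratio of 2.38 (2.09 to 2.81) in cluster 16 and of 0.86 in the median of the others. Rilpl2 was higher by 2.46 (1.90 to 6.99) and Smim6 by 2.27 (1.57 to 5.01), both with other-cluster medians within 0.1 of 0.

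Of the lower genes, Loxl2, a lysyl oxidase-like enzyme gene, was at 0.814 (0.555 to 1.15) in the control and 0 in Klf4 dEC, at least 10.9-fold lower. The other clusters were lower too, by a median log2 ratio of -2.00. Mgat4c, a glycosyltransferase gene, was at 1.71 (1.32 to 2.16), 0.373 (0.209 to 0.615), 0.456 (0.186 to 0.953) and 0.215 (0.102 to 0.390). Its log2 ratio of -1.94 in cluster 16 stood beside -0.16 in the others and 0.94 in cluster 14. Tnfrsf21, a death receptor gene, was at 3.28 (2.73 to 3.89), 0.833 (0.585 to 1.18), 3.26 (2.40 to 4.28) and 1.37 (1.06 to 1.76). Adh1, Wdr47, Npc1 and Aggf1 were lower by 1.70 to 1.82 on the log2 scale, each with about 3 to 10 UMIs in Klf4 dEC.

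Among the pathway lists, Defb1 was higher in Klf4 dEC by 1.04 and Sctr, the secretin receptor gene, by 1.34, at 0.412 (0.232 to 0.659), 1.20 (0.880 to 1.58), 1.48 (0.911 to 2.20) and 0.665 (0.446 to 0.933). Of 6 genes of the heat shock and unfolded protein response that passed, Hsph1 and Xbp1 were higher by 1.45 and 1.19, where 3.13% of all genes were higher. Hsph1, a heat shock protein gene, was at 0.291, 0.972, 0.201 and 0.964, so the libraries labelled with Klf4 deletion were the higher ones. Klf6, a relative of Klf4, was higher by 1.14, at 0.194, 0.546, 0.262 and 0.567, and was the sole gene of 6 in its family past the limit. Zbtb16, a steroid-responsive transcription factor, was lower by a log2 ratio of -1.04, at 6.97 (6.18 to 7.85), 3.35 (2.81 to 3.97), 4.46 (3.43 to 5.62) and 2.53 (2.09 to 3.02). The median Zbtb16 level of the other clusters was also lower in Klf4 dEC than in the control. Atp6v1f was the only V-ATPase V1 gene of 9 past the limit, at -1.26, where 2.21% of all genes were lower. With 1 or 2 genes past the limit, these lists give single genes and no direction of a list.

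**Figure D4:**
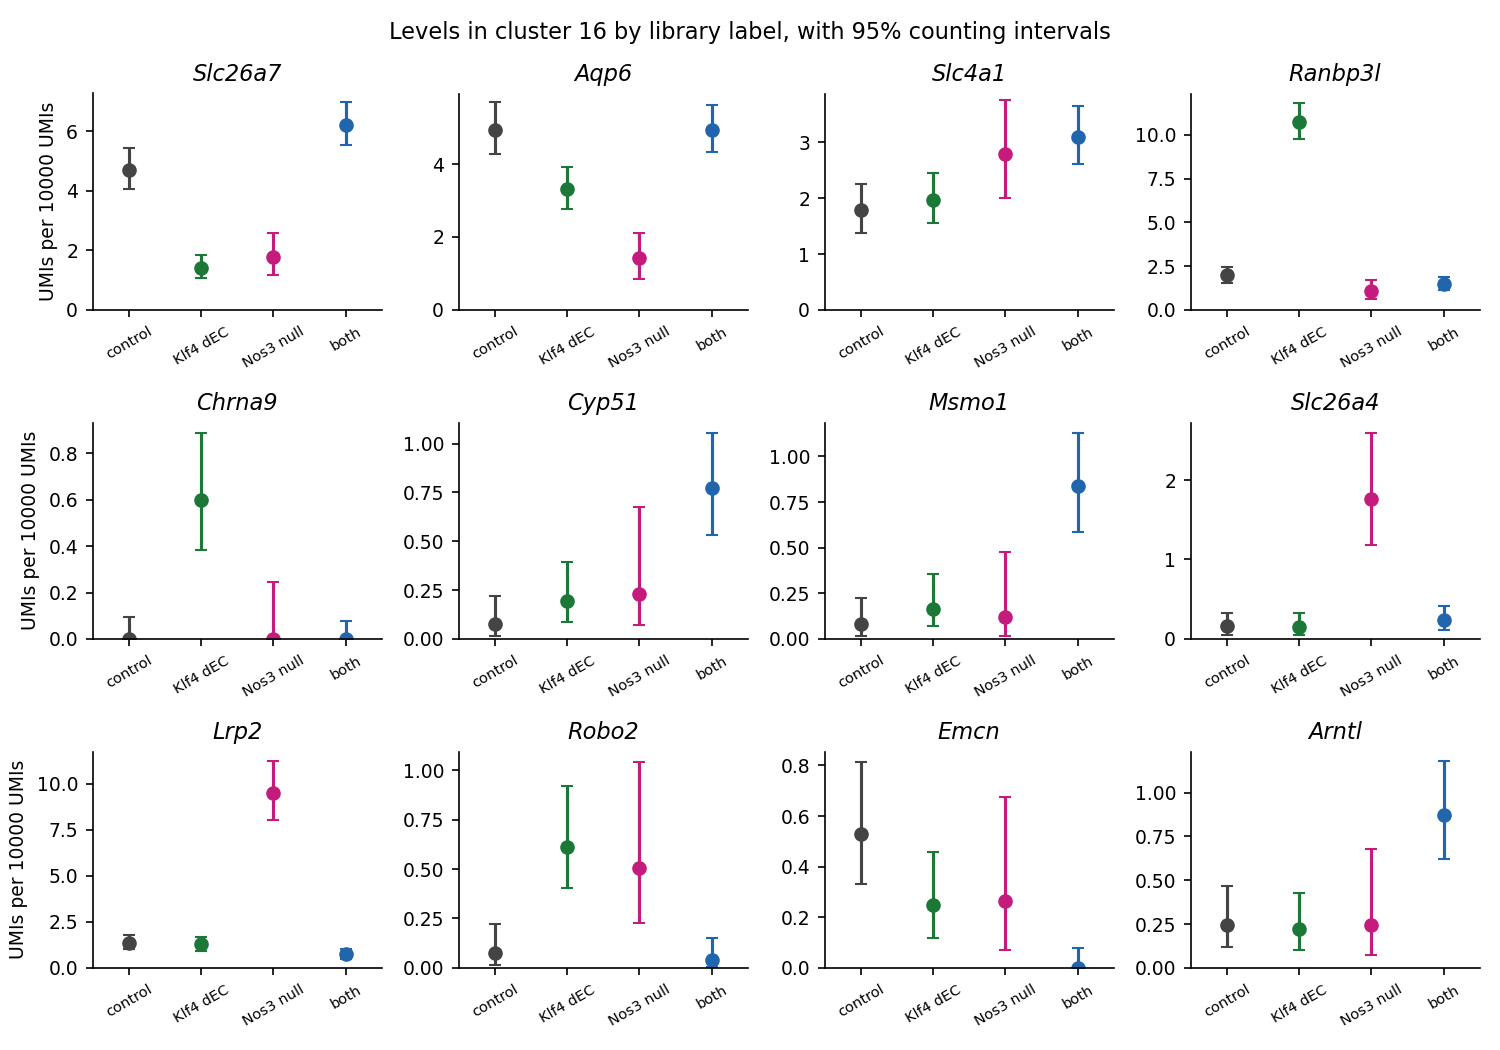
Levels of 12 genes in cluster 16 in UMIs per 10000 UMIs, by library label, with 95% counting intervals on a linear axis from 0 (both is Klf4 dEC Nos3 null). Slc26a7 is low in the libraries labelled Klf4 dEC and Nos3 null, Ranbp3l and Chrna9 are high in Klf4 dEC, and Slc26a4 and Lrp2 are high in Nos3 null.

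The library labelled Nos3 null stood apart from the control in more genes than Klf4 dEC did, and many of its higher genes were ones with their highest level in proximal tubule clusters. Of 4412 genes, 463 were higher (10.5%) and 342 lower (7.75%), together 18.2%, and for 681 of these 805 the interval of the ratio excluded 0. There was a correlation of 0.59 with the median of the other clusters. In cluster 14, 349 of 4274 genes were past the limit. Of the 463 higher genes, 251 (54.2%) had their highest level in 1 of the 6 clusters with the highest proximal tubule marker sums, against 791 of all 4412 genes (17.9%). Lrp2, the gene of the endocytic receptor megalin, was at 1.37 (1.03 to 1.79), 1.28 (0.944 to 1.67), 9.5 (8.03 to 11.2) and 0.730 (0.499 to 1.01) in cluster 16, and its median over the other clusters was 3.48, 5.93, 12 and 2.90. Of the 14 proximal tubule markers 9 were higher and 1, Kap, lower, with a median of 1.66 against 0.03 over all genes. Kap, the androgen-regulated protein gene, was at 16, 27.9, 4.17 and 18.4, and its median elsewhere at 18.3, 27.1, 4.3 and 18.7.

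Slc26a4 behaved in the same way, at 1.77 in Nos3 null and at most 0.240 elsewhere, a log2 ratio of 2.82, beside medians of 0.653 and 0.172 in the other clusters of Nos3 null and the control. Akr1c21, a steroid dehydrogenase gene, was at 0.209, 0.337, 2.61 and 0.268 and Slco1a6, an organic anion transporter gene, at 0.338, 0.498, 3.38 and 0.509. Their other-cluster log2 ratios were 1.14 and 1.30, against 3.13 and 2.99 in cluster 16. Prex2 was at 0, 0.0508, 0.837 and 0.0381, at least 11-fold higher than in the control. How far RNA of other cells, the lower depth or the genotype contributes was not tested, and with 1 library they cannot be told apart.

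**Figure D5:**
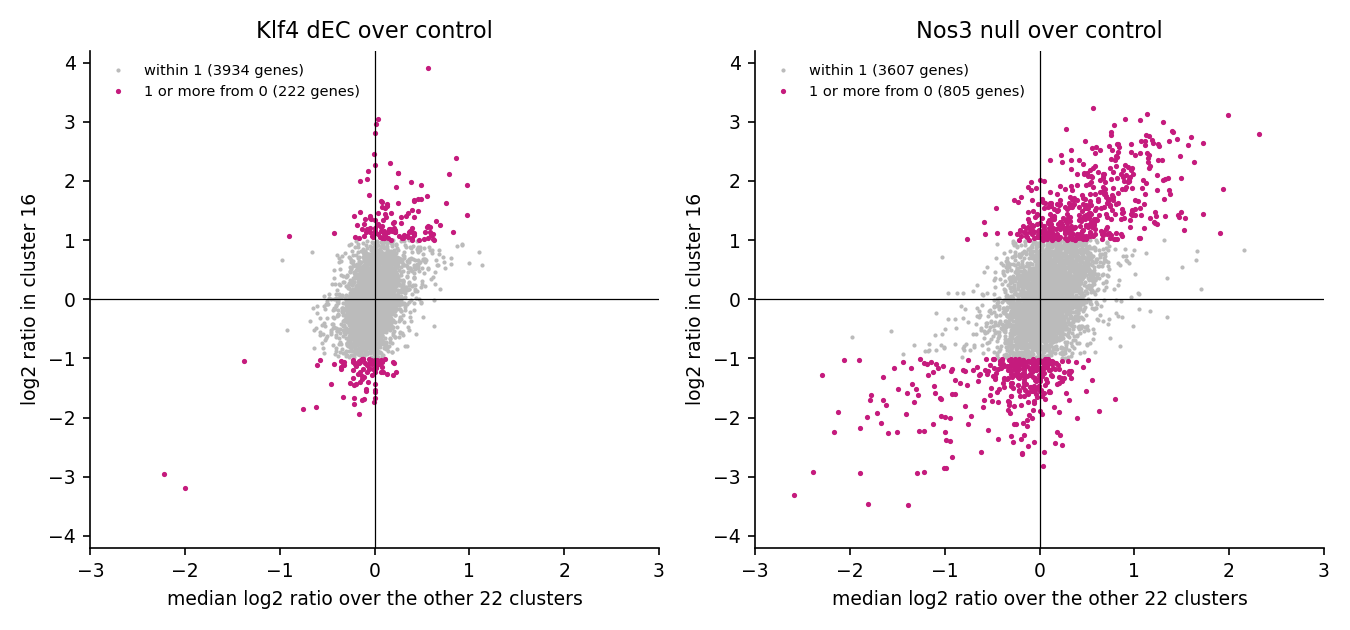
Log2 ratio of each gene in cluster 16 (vertical) against the median of its ratios in the other 22 clusters (horizontal), for Klf4 dEC over control and Nos3 null over control, with genes at 1 or more from 0 in pink. For Nos3 null, 314 of the 805 pink genes have an other-cluster median of at least 0.5 in the same direction, and for Klf4 dEC 28 of the 222 do.

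Genes of the type A program and of mitochondria were among the lower ones in Nos3 null. Aqp6, P2ry14 and Slc26a7, 3 of the 7 type A markers, were lower by log2 ratios of -1.73, -1.32 and -1.36. Of all 4412 genes, 342 (7.75%) were lower. The 7 type A markers had a median of -0.90, against 0.03 over all genes, while Slc4a1 was higher by 0.62. Rhcg, the ammonia channel, was lower at -1.25 and was the only gene of 13 shared by both intercalated types past the limit. The 9 V0 subunit and accessory genes had 0 past the limit and a median of -0.31. Of 10 mitochondrially encoded genes 6 were lower, with a median of -1.02. Of 11 nuclear genes of the respiratory chain 4 were lower, with a median of -0.26, beside the 7.75% of all genes. mt-Co2, a cytochrome oxidase subunit gene, was at 5.21, 6.76, 2.41 and 5.86 in cluster 16, and its median in the others was 6.26, 6.83, 2.54 and 6.07. Pde1a was lower at -1.46 and Ddah1, which breaks down an inhibitor of nitric oxide synthases, higher at 1.45. Mettl23 was at 0.893, 0.932, 0 and 0.891, at least 4.50-fold lower than in the control, and its median elsewhere was 1.01, 0.994, 0.0977 and 1.18. The 3 most lowered genes also included 2 predicted transcripts, Gm26733 and Gm26632, at 0 in Nos3 null and at least 5.11-fold and 5.02-fold lower than in the control. Their log2 ratios in the median of the other clusters were -1.39 and -1.81.

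Klf4 dEC Nos3 null set against Nos3 null gave the largest number of differences, and it shares the Nos3 null library with the comparison before it. Of 4576 genes, 466 were higher (10.2%) and 506 lower (11.1%), and for 862 the interval excluded 0. Of the lower genes, 284 (56.1%) had their highest level in the same 6 proximal clusters, against 17.8% of all that passed. Fgf1, a fibroblast growth factor gene, was at 0.570, 0.299, 4.04 and 0.156. Nox4, an NADPH oxidase gene, was at 1.39 (1.05 to 1.82), 1.72 (1.33 to 2.17), 9.42 (7.97 to 11.1) and 0.562 (0.377 to 0.833). Ror1, Pdzrn3, Bnc2, Glis1 and Arhgap42 were lower by log2 ratios between -3.69 and -3.97. Of the type A markers Aqp6, Dmrt2, P2ry14 and Slc26a7 were higher, by 1.10 to 1.75, and all 7 were above 0. Foxi1 was higher by 1.58, though with intervals of 0.107 to 0.771 and 0.933 to 1.59 on few UMIs. Camk2b, a calcium-dependent kinase gene, was at 1.26 (0.941 to 1.67), 2.27 (1.82 to 2.78), 0.188 (0.0409 to 0.579) and 3.11 (2.63 to 3.66), a log2 ratio of 3.48 (2.40 to 6.27) from about 3 UMIs in Nos3 null. Its ratio was 3.08 in cluster 14 and 1.47 in the median of the others.

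Between Klf4 dEC Nos3 null and Klf4 dEC, 110 of 4294 genes were higher (2.56%) and 88 lower (2.05%), together 4.61%. Slc26a7 was again the only type A marker past the limit, at 6.20 against 1.41, a log2 ratio of 2.06 (1.72 to 2.57), beside 0.10 in the other clusters and 0.13 in cluster 14. Nrxn3, a synaptic adhesion gene with its main level in cluster 19, was at 0.117, 0.00994, 0.565 and 0.586. The level in Klf4 dEC is that of 1 UMI, and the log2 ratio was 2.64 (1.98 to 9.93). Chrna9 was at least 9.43-fold lower, and Ranbp3l lower by -2.78 (-3.24 to -2.49). Unc5c, a netrin receptor gene, was at 0.607 (0.390 to 0.906), 1.76 (1.38 to 2.23), 1.73 (1.12 to 2.52) and 0.176 (0.0732 to 0.334). Robo2, an axon guidance receptor gene with its highest level in cluster 15, was at 0.0738, 0.609, 0.505 and 0.0377. The libraries with a single label had the higher values of both genes, and the control and Klf4 dEC Nos3 null the lower.

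Klf4 dEC Nos3 null set against the control, with 151 of 4302 genes higher (3.51%) and 81 lower (1.88%), together 5.39%, had Msmo1 and Cyp51 among the genes ranked highest. After subtraction of the median ratio of the other clusters, 73 were higher and 64 lower. Msmo1 and Cyp51, enzymes of cholesterol synthesis, were at 0.0824 (0.0157 to 0.222) and 0.0777 (0.0157 to 0.222) in the control and 0.836 (0.588 to 1.13) and 0.771 (0.534 to 1.06) in Klf4 dEC Nos3 null. The log2 ratios were 2.36 (1.79 to 5.78) for Msmo1 and 2.29 (1.66 to 5.67) for Cyp51, each from about 3 UMIs in the control. In cluster 14 they were 2.07 and 0.29, and in the median of the others 0.28 and 0.15. Both genes were named by the rank rule and no sterol list was read. Nupr1, a stress-response gene, and Pga5, a pepsinogen gene, were higher by 2.17 and 2.15, with other-cluster medians of 0.32 and 0.

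Among the lists, 3 of 6 heat shock and unfolded protein response genes were higher, Hsph1 at 1.44, Xbp1 at 1.09 and Calr at 1.22, where 3.51% of all genes were. Dmrt2 was the only type A marker past the limit, at 1.03, and the list's median was 0.20. Arntl, the core clock gene also known as Bmal1, was at 0.246 (0.122 to 0.467), 0.223 (0.102 to 0.425), 0.245 (0.0720 to 0.677) and 0.871 (0.624 to 1.18), higher than the control by 1.49. The clock output gene Tef was lower at -1.14, from 1.60 to 0.674. The median of Arntl in the other clusters was 0.121, 0.315, 0.563 and 0.599, and the labels give no hour of tissue collection. Zbtb16 was lower at -1.43, with an other-cluster median of 3.14, 0.858, 0.578 and 0.767, and Slc8a1, a sodium and calcium exchanger gene of the connecting tubule, at -1.61. Slc12a3, the thiazide-sensitive transporter gene of the distal convoluted tubule, was at 1.81, 1.60, 3.31 and 0.387.

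A few of the low genes rested on individual nuclei. Emcn, an endothelial glycoprotein gene, was at 0.527 (0.330 to 0.814), 0.247, 0.264 and 0, at least 8.29-fold lower in Klf4 dEC Nos3 null than in the control, and Meis2, a homeobox gene, was at 0.597 (0.390 to 0.906), 0.227, 0.913 and 0.0480, a log2 ratio of -2.24. A control nucleus of 2473 UMIs held 17 Meis2 UMIs, with 2 more elsewhere, and 8 Emcn UMIs, with 6 more in 3 other nuclei. The same nucleus held 8 UMIs of Adgrl4 and 3 of Pecam1, both endothelial. Of the other endothelial markers read for it, it held 2 UMIs of Tek, 1 of Kdr and 0 of Flt1. Without it, Meis2 in the control was at 0.0515 and its log2 ratio was -0.03, while Emcn was at 0.273 with a ratio of -1.90. Of the 6 Emcn UMIs that then remained, 4 lay in 1 nucleus. In Klf4 dEC Nos3 null a nucleus of 6674 UMIs held 8 UMIs of Top2a, 5 of Cenpf, 4 of Mki67 and 4 of Kif11, genes of dividing cells. Outside it Top2a and Cenpf had 0 UMIs in that library, and Mki67 and Kif11 had 1 each. Bub1, the remaining cycling marker, had 0 UMIs in that nucleus and 1 in another. The 5 cycling markers summed to 0, 0.0787, 0.0150 and 0.296 over the libraries, so the highest sum came mostly from that nucleus.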

How the data were processed

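Per the submitters' processing notes, the authors used Cell Ranger, Seurat and the mm10 build; the sources used here give no versions, clustering settings or doublet treatment. The authors deposited a normalized signal, 1 value per gene (21046) and column (92, from 23 clusters in 4 libraries), with each column summing to 10000, so a value is a mean over nuclei of UMIs per 10000 UMIs. All columns were matched to libraries by title, with 0 left over. Gene coordinates are those of the mm10 annotation.

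Nuclei numbers were inferred. The reciprocal of a low value is the nuclei number times a nucleus's UMI total, so the largest number dividing at least 85% of the reciprocals that recur at least 3 times was taken (10 columns needed more repeats), with a relative tolerance of 3e-13. UMI counts and intervals rest on these totals: exact Poisson for levels, exact binomial (Clopper-Pearson) for shares and for ratios without the pseudocount, at 95%. The counts behind intervals and ratios are levels scaled by the nuclei number and the harmonic mean total, then rounded. They can differ from UMIs placed in single nuclei, as for Aqp2 in Nos3 null, at 1.04 against 3. A fold against 0 UMIs used 3 UMIs in that column. PCR copies are collapsed by UMI, and intervals cover counting error only. The recovery was tested on simulated columns.

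Log2 ratios used a pseudocount of 0.1, which understates low genes, and genes whose higher level reached 0.5 (in every library against cluster 14). Against the other clusters, the comparator was their unweighted mean. There the filter read the level in the studied cluster alone, at 0.5 in every library. Genes low in that cluster and high elsewhere could therefore not enter those counts. Medians of levels and of sums over the other clusters left out cluster 14, while medians of ratios included it. With 1 library per genotype no test was made. Named genes were the first 20 over the other clusters, 15 each way against cluster 14, 8 each way per library comparison (1 is not reported here), Klf4 and Nos3, and examples from gene lists; predicted transcripts were named only in the first 3 of a rank. The cluster, markers, lists and rules were chosen with earlier results of these data known. A few named genes were placed in single nuclei, which was added after the values were seen. Alternatives varied pseudocount, filter, scaling, comparator and libraries. Listed genes without a row (7) were skipped. Python 3.11.15, numpy 2.4.6, pandas 2.3.3, scipy 1.17.1 and matplotlib 3.10.9 were used.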

Additional observations from a re-analysis of the deposited data

Results flagged for a closer look

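Several genes of cluster 16 differed in opposite directions under the same label with and without the other. None of these differences of differences was tested, since each rests on 4 single libraries. They number 15 genes under the Klf4 deletion label and 28 under the Nos3 loss label. How many genes passed the filter in both comparisons of a label is not given, so these counts carry no share. In the comparisons of the Klf4 deletion label, 222 of 4156 genes (5.34%) and 972 of 4576 (21.2%) were past the limit. In those of the Nos3 loss label, 805 of 4412 (18.2%) and 198 of 4294 (4.61%) were. Both counts draw on the shallow Nos3 null library. The genes named by the rank rule or the marker lists follow.

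Slc26a7 had log2 ratios of -1.67 for Klf4 dEC over control and 1.75 for Klf4 deletion on the Nos3 null label, a difference of 3.42. For loss of Nos3 without and with Klf4 deletion the ratios were -1.36 and 2.06. Their difference is the same by arithmetic, since the same columns enter both, and it is no second result. It was high in the control and in Klf4 dEC Nos3 null and low in the libraries labelled with either change. The reverse held for Robo2, at 2.03 and -2.13 under Klf4 deletion and 1.80 and -2.36 under Nos3 loss, a difference of -4.16. Unc5c was at 1.40 and -2.73, then 1.37 and -2.76, a difference of -4.13.

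Sctr was at 1.34 and -1.05 under the Klf4 label, a difference of -2.39. Under the Nos3 label, Hadhb, a subunit gene of fatty acid oxidation, was at -2.20 and 1.04, a difference of 3.25. Keg1 was at 2.48 and -1.37 (-3.85) and Nox4 at 2.68 and -1.46 (-4.14), both high in the Nos3 null library, where proximal tubule genes were higher in cluster 16.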

How the results depend on the processing

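No paired analysis was possible because each genotype has 1 library. No direction of a named result turned under an alternative. Of the alternative values of counts and shares, 42 moved by at most 1.5 times or within their interval and 21 by more. Comparisons follow in the order Klf4 dEC over control, Nos3 null over control, Klf4 dEC Nos3 null over Nos3 null, over Klf4 dEC and over control, with 222, 805, 972, 198 and 232 genes past the limit. A pseudocount of 0.5 gave 41, 294, 410, 30 and 45, no filter 779, 2197, 2450, 706 and 679, and a filter at 1 gave 94, 416, 492, 72 and 91. A pseudocount of 0.02 gave 298 for the fourth of these. Subtracting the other clusters' median gave 115 for the fourth and 137 for the fifth. Between clusters 16 and 14 a pseudocount of 0.5 gave 82 genes, and leaving out a library 140 to 286, the latter without Nos3 null. Leaving out a library gave 198 to 246 genes over the other clusters, and the highest of the other 21 clusters as comparator gave 44. Leaving out genes that rest on 1 nucleus, added after the values were seen, gave 221, 805, 972, 198 and 231. Counts of genes past the limit thus depend on the pseudocount and filter, and Nos3 null, with 90 shallow nuclei, limits precision most.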
